A study of Mus musculus with 8 samples.

Results

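The balance between fibrin removal and clot formation was examined in pericyte cultures through 9 genes. They are the plasminogen activators *Plat* and *Plau*, the urokinase receptor *Plaur*, and the serpins *Serpine2* and *Serpinf1*. The others are tissue factor (*F3*), its inhibitor *Tfpi*, the related protease inhibitor *Tfpi2*, and thrombomodulin (*Thbd*). The genes were chosen with earlier results of these data known. All 9 were found by symbol among the 54532 Ensembl identifiers of the deposited counts. Bulk RNA-seq had been performed on 8 primary cultures of WT mouse brain pericytes, the mural cells of capillaries. Of these, 4 cultures had received TGF-β1 (5 μg per mL, 48 h) and 4 had received vehicle. The TGF-β1 cultures are numbered 5 to 8 and the vehicle cultures 1 to 4, as in the labels. Per the methods of the study, the cells came from papain-digested brain and had been expanded over several passages in culture. The methods describe the mouse models of the study, but tie no age, sex or strain to the donors of these brain cells. The methods of the study describe isolates that each received both treatments, but the labels share no number between the groups, so the cultures were compared unpaired.

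Plasmin, which dissolves fibrin and degrades matrix proteins, is cut from plasminogen by tissue-type activator (tPA, from *Plat*) or by urokinase (uPA, from *Plau*), and uPA acts largely while bound to its receptor. Serpins of the inhibitory kind trap these proteases. Coagulation starts when tissue factor on a perivascular cell meets factor VII in blood. It is held back by tissue factor pathway inhibitor and by thrombomodulin, which turns thrombin from a clotting enzyme into an activator of protein C. Cells that surround vessels are known to carry tissue factor.

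The counts summed to between 45255235 and 47651397 per culture. Levels are given as CPM, the count scaled to the library total with TMM factors, on which 3 counts correspond to 0.0631 to 0.0658 CPM. The label was checked against pericyte markers. *Pdgfrb* (198 to 210 CPM with vehicle), *Notch3* (85.9 to 90.4 CPM), *Cspg4* and *Cd248* were well expressed, whereas *Kcnj8*, *Abcc9* and *Vtn* stayed under 0.2 CPM and *Des* under 0.8 CPM in every culture. The markers themselves moved between the groups: *Cspg4* and *Pdgfrb* rose by log2 fold changes of 1.03 and 0.53, and *Rgs5* fell from 8.62 ± 0.466 to 2.13 ± 0.245 CPM (SD, n = 4 each; log2 fold change -2.02, edgeR adjusted p = 7.63e-21). Every list of markers of other cell types held genes at or near 0 with vehicle, such as *C1qb*, *Aqp4*, *Lum* and *Tie1*. Except for the platelet list, each also held genes of more than 100 CPM, namely *Cdh5* (375 CPM), *Tmem119* (102 CPM), *Gja1* (195 CPM) and the fibroblast collagens such as *Col1a1* (1588 CPM).

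Expression was high enough for a test in 8 of the 9 genes, by the filter of edgeR, and too low for *Tfpi2*. The quasi-likelihood test of edgeR called 6 of the 8 (75%) at an adjusted p below 0.05, and called 41.3% of all 22544 genes tested. Because the genes were chosen with earlier results of these data known, the difference between these shares is no test of the group. There were 3 higher genes, *Plaur*, *Serpinf1* and *Tfpi*, beside 20.9% of all genes, and 3 lower genes, *Thbd*, *Plat* and *F3*, beside 20.3%. *Plau* and *Serpine2* were not called. In 5 of the 8 the TGF-β1 and vehicle cultures did not overlap, as in 37.9% of all genes. None of the 8 passed the absolute log2 fold change of 1.5 named in the methods of the study, which 2.00% of all genes did together with the adjusted p. The median absolute log2 fold change of the 8 was 0.29, beside 0.18 over all genes tested. The median of the signed values was 0.01, beside -0.01 over all genes.

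The 250 bases before the RefSeq transcription start were read for the 6 members with an entry in the table used (*Serpine2*, *Tfpi*, *F3*, *Tfpi2*, *Plaur* and *Serpinf1*, with 9 windows in all, since *Tfpi* has 2 starts and *Tfpi2* has 3). These windows were searched on both strands for TGANTCA, the site of AP-1 factors, and for CAGAC, a core bound by Smad3 and Smad4. The windows below are those of the 2 called genes that hold TGANTCA (*F3* and *Plaur*), of the *Tfpi2* start that holds it, and of *Serpinf1*, the called gene with CAGAC at its only start. They are printed 5′ to 3′ on the strand of the gene (GRCm38.p6), with the motif matches in capitals.
F3, chr3:121723287-121723536, plus strand: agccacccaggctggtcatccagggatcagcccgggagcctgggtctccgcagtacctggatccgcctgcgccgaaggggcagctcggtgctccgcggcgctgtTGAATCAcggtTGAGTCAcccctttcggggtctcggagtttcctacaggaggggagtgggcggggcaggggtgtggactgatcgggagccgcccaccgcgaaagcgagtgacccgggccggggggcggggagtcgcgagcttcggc
Plaur, chr7:24462233-24462482, plus strand: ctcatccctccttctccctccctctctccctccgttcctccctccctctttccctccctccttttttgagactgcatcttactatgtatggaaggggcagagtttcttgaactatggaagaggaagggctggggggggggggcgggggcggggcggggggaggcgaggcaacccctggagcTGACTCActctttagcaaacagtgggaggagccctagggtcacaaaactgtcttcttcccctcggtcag
Tfpi2, chr6:3968376-3968625, minus strand: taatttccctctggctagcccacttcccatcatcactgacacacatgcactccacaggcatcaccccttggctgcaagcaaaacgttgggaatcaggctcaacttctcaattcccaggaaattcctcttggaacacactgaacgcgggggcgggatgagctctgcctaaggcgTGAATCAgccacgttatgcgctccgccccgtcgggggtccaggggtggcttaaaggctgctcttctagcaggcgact
Serpinf1, chr11:75422624-75422873, minus strand: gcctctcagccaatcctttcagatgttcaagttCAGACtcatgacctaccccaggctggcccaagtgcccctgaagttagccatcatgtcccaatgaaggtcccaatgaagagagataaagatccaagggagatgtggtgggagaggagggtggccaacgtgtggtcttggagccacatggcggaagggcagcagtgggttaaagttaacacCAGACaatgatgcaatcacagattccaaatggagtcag

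In *F3* the matches to TGANTCA began 146 and 135 bases before the start, in *Plaur* 69 bases before it and in this window of *Tfpi2* 77 bases before it. The motif was found in 6.75% of the 32851 windows of the table, and 2 or more matches in 0.338%. *Serpinf1* held CAGAC beginning 217 and 38 bases before its start. Of all windows, 42.2% held at least 1 match to CAGAC and 11.7% held 2 or more. A *Tfpi* window held CAGAC beginning 167 and 96 bases before its start. A *Tfpi2* window not printed here held it beginning 79 and 37 bases before its start. The called genes that hold TGANTCA moved in opposite directions, *F3* lower and *Plaur* higher. *Serpine2* held 1 CAGAC and lay in the most GC-rich window of the 9 (78.8% GC, above 98.3% of all windows).

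The tissue-type activator was lower and the urokinase-type activator was not detectably changed. *Plat* (ENSMUSG00000031538, chromosome 8, 22757727 to 22782844 of GRCm38) encodes tPA. It was at 107, 111, 107 and 106 CPM in vehicle cultures 1 to 4 and at 83.9, 88.5, 88.1 and 87.1 CPM in TGF-β1 cultures 5 to 8. The highest TGF-β1 culture lay below the lowest vehicle culture. *Plat* fell by 19.5% (log2 fold change -0.31, standard error 0.03, edgeR adjusted p = 7.61e-13).

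*Plau* (ENSMUSG00000021822, chromosome 14, 20836660 to 20843385) encodes uPA. It was at 7.88, 8.91, 8.94 and 10.1 CPM with vehicle and at 8.49, 9.36, 9.86 and 9.15 CPM with TGF-β1, from 363 to 464 counts per culture. The groups overlapped, and the log2 fold change of 0.04 (standard error 0.08, edgeR adjusted p = 0.702) had a 95% interval from -0.11 to 0.20. In percent, that interval ran from -7.47% to 14.7%. Without vehicle culture 1 the log2 fold change was -0.0078.

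*Plaur* (ENSMUSG00000046223, chromosome 7, 24462484 to 24475968), the membrane-anchored receptor that gathers uPA at the cell surface, was higher with TGF-β1. Its levels were 35.8, 33.6, 40.4 and 37.2 CPM with vehicle and 47.5, 51.1, 51.1 and 55 CPM with TGF-β1. The lowest TGF-β1 culture lay above the highest vehicle culture. The rise was 39.3% (log2 fold change 0.48, standard error 0.05, edgeR adjusted p = 2.48e-09). The receptor was thus measured higher at a level of its ligand that did not differ beyond the spread between cultures. Macrophages and microglia also carry this receptor, and their 11 markers summed to 109 to 114 CPM with vehicle and to 109 to 111 CPM with TGF-β1, nearly all of it *Tmem119* (99.9 to 105 CPM with vehicle and 97.0 to 99.6 CPM with TGF-β1). Of the 8 of these markers tested, *Csf1r* rose and none fell, while *C1qb* was at 0 in all cultures and *C1qa* and *Adgre1* were close to it.

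*Serpine2* (ENSMUSG00000026249, chromosome 1, 79794197 to 79861180) encodes protease nexin 1, an inhibitor of thrombin, uPA and tPA. It was among the most abundant of the 9 genes, at 517, 509, 520 and 525 CPM with vehicle and 522, 521, 511 and 491 CPM with TGF-β1. The groups overlapped. With a log2 fold change of -0.02 (standard error 0.02, edgeR adjusted p = 0.563), it had a 95% interval from -4.36% to 1.92%. Without TGF-β1 culture 8, the lowest one, the log2 fold change was 0.0088.

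*Serpinf1* (ENSMUSG00000000753, chromosome 11, 75409769 to 75422701) encodes pigment epithelium-derived factor (PEDF), a secreted serpin that does not inhibit proteases and is known as an inhibitor of vessel growth. It was at 557, 555, 563 and 565 CPM with vehicle and at 749, 754, 738 and 722 CPM with TGF-β1. The groups were far apart relative to a spread of 0.848% of the mean among vehicle cultures and 1.87% among TGF-β1 cultures. *Serpinf1* rose by 32.3% (log2 fold change 0.40, standard error 0.02, edgeR adjusted p = 3.08e-20). Fibroblasts also secrete PEDF, and the 8 fibroblast markers summed to 4487 to 4711 CPM with vehicle and to 6559 to 6836 CPM with TGF-β1. Nearly all of each sum came from the collagens *Col1a1*, *Col1a2* and *Col3a1*, which rose. Their means were 1588, 2121 and 801 CPM with vehicle and 2525, 2852 and 1248 CPM with TGF-β1. *Dcn* and *Dpt* fell, and *Pdgfra* lay at 61.3 to 64.2 CPM with vehicle and at 61.0 to 65.2 CPM with TGF-β1. *Lum*, *Pi16* and *Dpt* were under 1 CPM in every culture. The part of fibroblasts in the rise of *Serpinf1* was not tested, and in bulk RNA more cells of a type and more RNA per cell cannot be told apart.

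On the side of coagulation, the initiator *F3* fell and its main inhibitor *Tfpi* was nearly level. *F3* (ENSMUSG00000028128, chromosome 3, 121723537 to 121735048), the cell surface receptor for factor VII, was at 170, 164, 173 and 171 CPM with vehicle and at 145, 142, 140 and 134 CPM with TGF-β1. No culture of one group reached the range of the other. *F3* fell by 17.3% (log2 fold change -0.27, standard error 0.03, edgeR adjusted p = 6.34e-12). Astrocytes are a known source of tissue factor in brain, and their 7 markers summed to 248 to 260 CPM with vehicle and to 224 to 236 CPM with TGF-β1, without overlap. Of the 6 markers tested, *Slc1a2* and *S100b* fell (log2 fold changes -1.24 and -1.55), *Slc1a3* and *Aldh1l1* rose (0.64 and 0.77), and *Gja1* and *Gfap* were not called. The part of astrocytes in the fall of *F3* was not tested.

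*Tfpi* (ENSMUSG00000027082, chromosome 2, 84432855 to 84476775) encodes the Kunitz-type inhibitor of factor Xa and of the tissue factor complex. It was at 101, 95.1, 106 and 100 CPM with vehicle and at 106, 107, 105 and 107 CPM with TGF-β1. The groups overlapped through vehicle culture 3, and an exact permutation test over the cultures (two-sided) gave p = 0.0857. The log2 fold change was 0.08 (standard error 0.03, edgeR adjusted p = 0.0313), a rise of 5.42%. The call did not hold in DESeq2 (adjusted p = 0.0538), with library totals as the only scaling in edgeR (0.0582) or when any gene with a single count was kept (0.0761). It was also lost in edgeR without vehicle culture 2 (adjusted p = 0.160) or 4 (0.0734) and without TGF-β1 culture 5 (0.0537), 6 (0.0803) or 7 (0.0566).

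*Tfpi2* (ENSMUSG00000029664, chromosome 6, 3962595 to 3988919), a second Kunitz-type inhibitor, which is secreted into the matrix and inhibits plasmin and trypsin-like proteases, was almost absent with vehicle. Its counts were 0, 0, 3 and 0 with vehicle and 9, 14, 10 and 22 with TGF-β1. Every TGF-β1 culture exceeded every vehicle culture, although all values were low. The total per depth was 18.4 times that of the vehicle cultures, with a 95% interval from 5.98 to 92. That interval covers counting error only and takes each count as independent, so it is too narrow if both mates of a pair were counted. An exact permutation test of the CPM gave p = 0.0286 (two-sided), the smallest p that 4 cultures against 4 allow. *Tfpi2* was below the expression filter and has no adjusted p in the main test. When any gene with a single count was kept, edgeR gave an adjusted p of 1.80e-06, and DESeq2 gave 0.000149.

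*Thbd* (ENSMUSG00000074743, chromosome 2, 148404466 to 148408188) encodes thrombomodulin, the membrane receptor through which thrombin activates protein C. It changed most of the 8 genes tested, from 120, 112, 114 and 120 CPM with vehicle to 54.0, 52.3, 54.2 and 51.7 CPM with TGF-β1. The TGF-β1 cultures differed little from each other (SD 2.31% of the mean) and lay far below all vehicle cultures. *Thbd* fell by 54.4% (log2 fold change -1.13, standard error 0.03, edgeR adjusted p = 8.39e-31), and 95.9% of all genes tested had a smaller absolute log2 fold change. Leaving out any single culture gave log2 fold changes from -1.15 to -1.11.

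Thrombomodulin is best known from endothelium. The 10 endothelial markers summed to 488 to 501 CPM with vehicle and to 488 to 511 CPM with TGF-β1, most of it *Cdh5*. Of the 6 tested, *Flt1* rose, *Tek* and *Ly6c1* fell, and the other three, *Cdh5*, *Kdr* and *Pecam1*, were not called. *Tie1*, *Cldn5*, *Emcn* and *Erg* were under 0.3 CPM in every culture. With vehicle, *Thbd* (116 ± 3.96 CPM, SD, n = 4) thus stood beside *Cdh5* at 368 to 383, *Flt1* at 80.0 to 83.3, *Kdr* at 16.2 to 19.3 and *Pecam1* at 0.780 to 1.65 CPM. The summed level overlapped between the groups, and the part of endothelial RNA in the fall of *Thbd* was not tested.

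**Figure D1:**
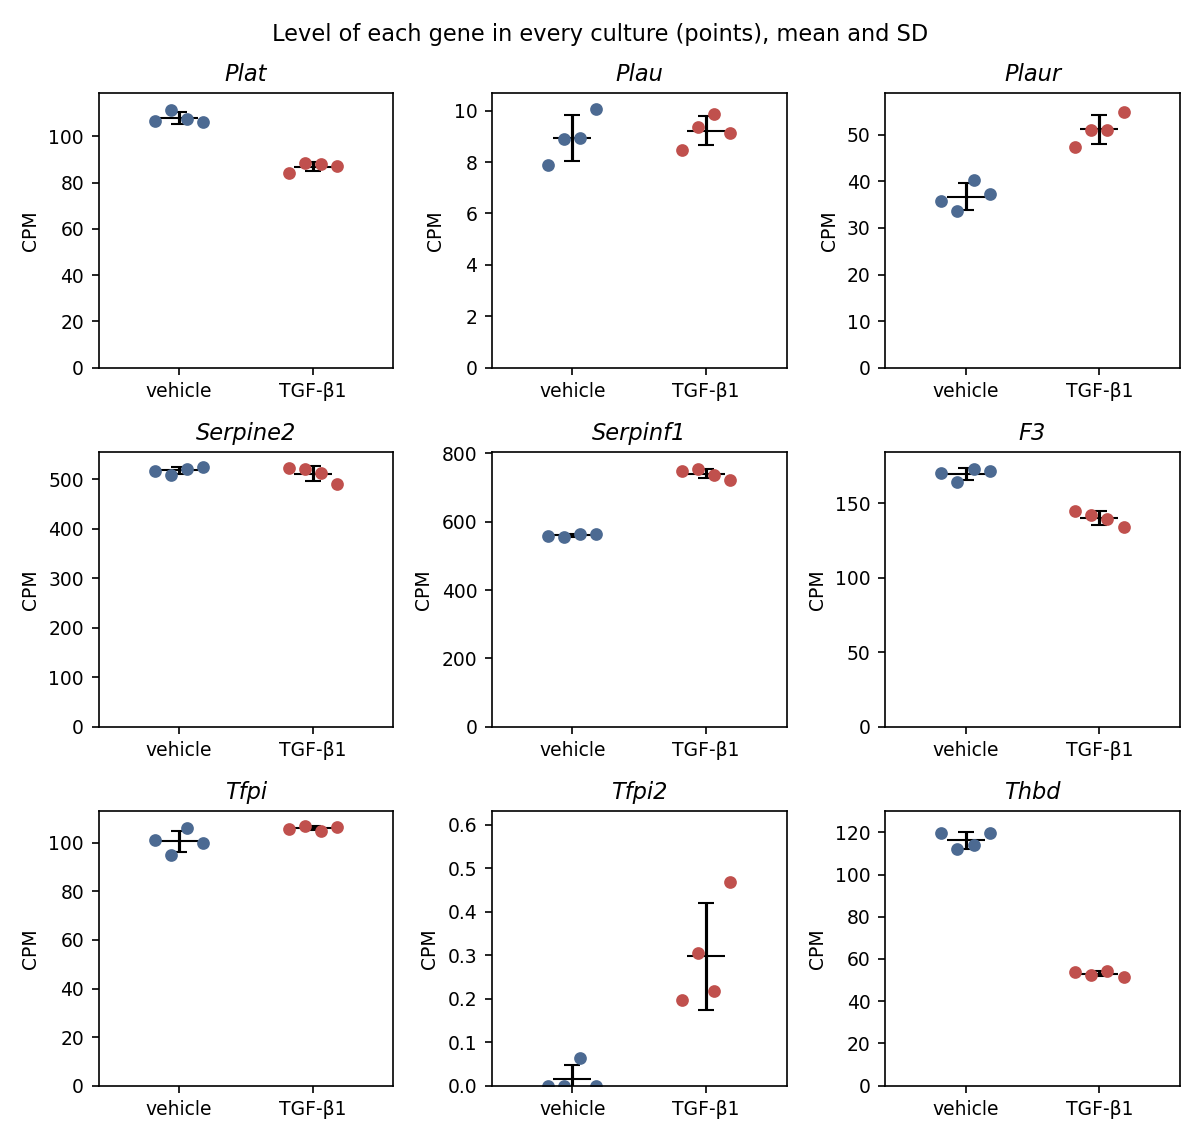
Level of each of the 9 genes in CPM (y axis, from 0) in the 4 vehicle and 4 TGF-β1 cultures (points), with the mean and SD of each group in black. The 2 groups do not overlap for *Plat*, *Plaur*, *Serpinf1*, *F3*, *Tfpi2* and *Thbd*, and overlap for *Plau*, *Serpine2* and *Tfpi*.

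**Figure D2:**
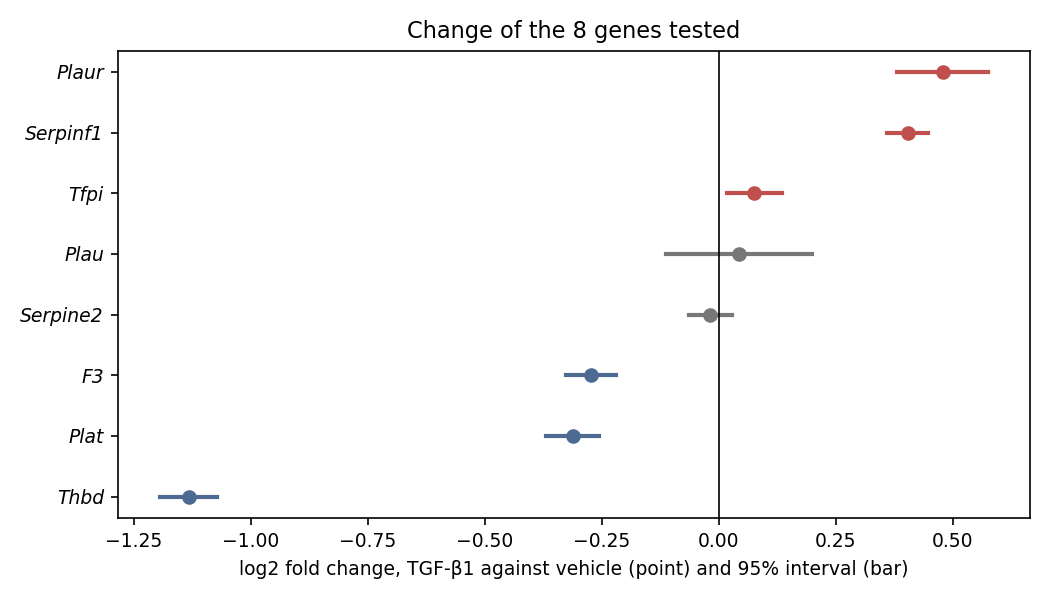
Log2 fold change of the 8 genes tested (point) with its 95% interval (bar), TGF-β1 against vehicle, in red where higher and in blue where lower with an edgeR adjusted p under 0.05 and in grey otherwise. *Thbd* at -1.13 lies apart from the others, which range from -0.31 to 0.48.

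To compare levels between genes, CPM was divided by the merged exon length in kb. On this scale *Serpinf1* ranked first in both groups, at 237 ± 2.01 CPM per kb (SD, n = 4) with vehicle and 314 ± 5.87 CPM per kb with TGF-β1. With vehicle it was followed by *F3* at 67.1 ± 1.47, *Serpine2* at 62.5 ± 0.817 and *Thbd* at 31.2 ± 1.06 CPM per kb (SD, n = 4 each), and the ranges of these neighbours did not overlap. *Tfpi* (18.4 ± 0.814 CPM per kb) and *Plat* (17.3 ± 0.389 CPM per kb) came next and overlapped. *Plaur*, *Plau* and *Tfpi2* closed the order at 14.0, 3.78 and 0.00903 CPM per kb. With TGF-β1, *Serpine2* (61.7 ± 1.74 CPM per kb) stood above *F3* (55.5 ± 1.82 CPM per kb), and *Thbd* (14.2 ± 0.329 CPM per kb) dropped to a range shared with *Plat* (13.9 ± 0.329 CPM per kb). *Plaur* moved up to overlap with *Tfpi*, at 19.6 and 19.4 CPM per kb. The vehicle level of *F3* per kb exceeded that of 97.8% of all genes tested. Merged exon lengths take in all annotated exons and need not be those of the transcripts present, so the order depends on them. By CPM alone, *Serpine2* stood above *F3* with vehicle (518 and 170 CPM), at exon lengths of 8287 and 2527 bases.

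Ratios of 2 genes within a culture do not depend on how libraries are scaled to each other, and are given here without a test. The log2 ratio of *F3* to *Tfpi* was 0.76 ± 0.04 (SD, n = 4) with vehicle and 0.40 ± 0.05 with TGF-β1. That of *Plat* to *Serpine2* was -2.26 ± 0.05 with vehicle and -2.56 ± 0.06 with TGF-β1. In both the TGF-β1 cultures lay below the vehicle cultures, so that activator or initiator was lower relative to the inhibitor. The log2 ratio of *Plau* to its receptor *Plaur* went from -2.04 ± 0.16 to -2.47 ± 0.09, and that of *Plat* to *Plau* from 3.60 ± 0.15 to 3.24 ± 0.06, again without overlap. Only the ratio of *Plau* to *Serpine2* overlapped between the groups, at -5.86 ± 0.14 and -5.80 ± 0.11.

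**Figure D3:**
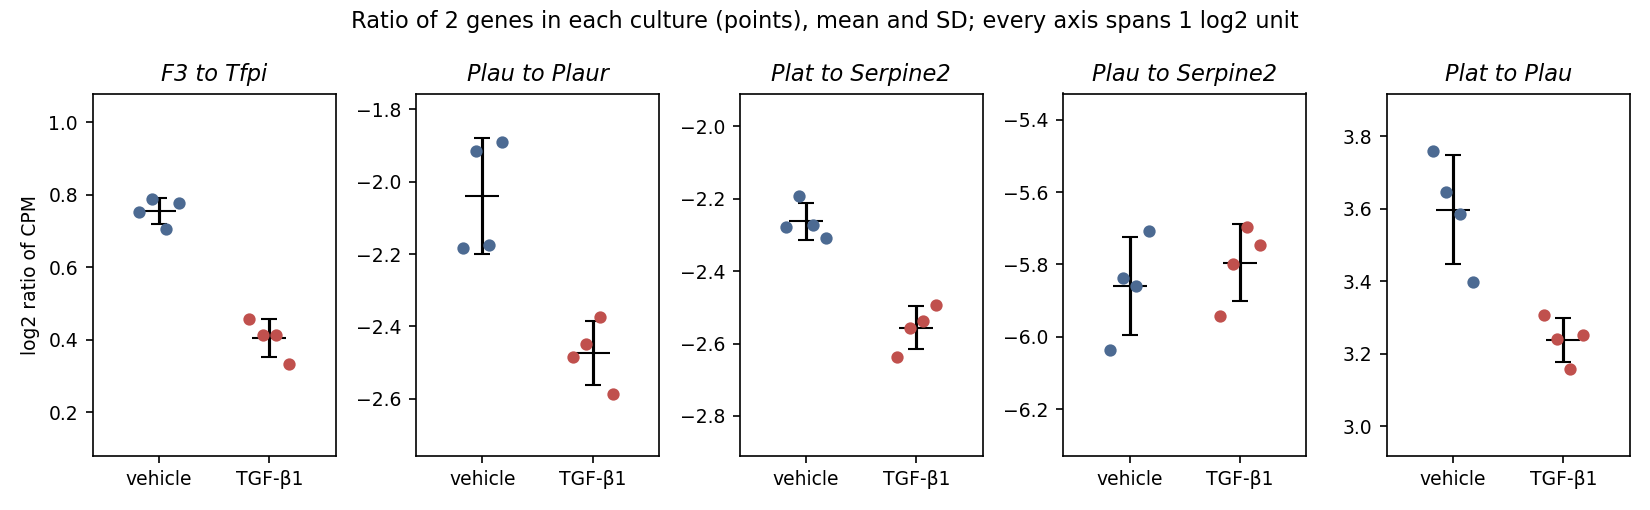
Log2 ratio of the CPM of 2 genes in each culture (points) with the mean and SD in black, for 5 pairs, on axes that each span 1 log2 unit. The TGF-β1 cultures lie below the vehicle cultures in 4 pairs, and the groups overlap for *Plau* to *Serpine2*.

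The wider plasminogen system was read from a list of 27 genes, of which 23 were tested. It holds 4 of the 9 genes above. With an edgeR adjusted p under 0.05, 7 were higher and 7 were lower (60.9% of those tested, beside 41.3% of all genes). The median log2 fold change was -0.02. The list was chosen, as were those that follow, with earlier results of these data known, so the called shares are no test. The largest rise was that of *Serpinb2*, which encodes plasminogen activator inhibitor 2, from 3.23 ± 0.196 to 13.4 ± 1.70 CPM (SD, n = 4 each; log2 fold change 2.05, standard error 0.09, edgeR adjusted p = 4.54e-23). Of its 50-base words, 10.4% occur in transcripts of other genes, and 12.4% of its exon bases overlap *Serpinb10* on the same strand. *Plg*, which encodes plasminogen itself, was under the filter, at 0.0324 CPM with vehicle and 0.0218 CPM with TGF-β1.

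Beside the members and *Plg*, only called genes were named from this list, so that each of them changed follows from that choice. Of those named for binding plasminogen at the cell surface, 3 fell and 1 rose. *S100a10* and *Anxa2*, which encode the subunits of the annexin A2 complex that binds tPA and plasminogen, fell by 0.37 and 0.30 on the log2 scale (edgeR adjusted p = 6.59e-16 and 4.27e-13). *Plgrkt*, a plasminogen receptor with a C-terminal lysine, fell by 0.30 (edgeR adjusted p = 1.11e-07). *Eno1*, a glycolytic enzyme that also binds plasminogen at the cell surface, went the other way and rose by a log2 fold change of 0.52 (edgeR adjusted p = 4.13e-23), though 26% of its 50-base words occur in other genes.

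*Lrp1*, a clearance receptor that takes up complexes of activators with their inhibitors, was high and rose from 2411 ± 136 to 3016 ± 96.6 CPM (SD, n = 4 each; log2 fold change 0.32, edgeR adjusted p = 1.30e-05). *Lrp8* rose by a log2 fold change of 0.90 (edgeR adjusted p = 3.06e-21). *Lrpap1*, the chaperone of *Lrp1* protein in the secretory pathway, fell by 0.38 (edgeR adjusted p = 2.72e-13).

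Among 24 genes for coagulation factors, their substrates and their secretion, which include *F3*, 18 were tested, and 7 were higher and 3 lower. These make 55.6% called, beside 41.3% of all genes, with a median log2 fold change of 0.06. *Vwf*, the platelet-binding carrier of factor VIII, rose from 1.58 ± 0.430 to 3.81 ± 0.679 CPM, and *F5*, the cofactor of factor Xa, from 7.13 ± 0.559 to 15.5 ± 0.420 CPM (SD, n = 4 each; edgeR adjusted p = 3.22e-08 and 3.44e-18). *F8*, the cofactor of factor IXa, fell from 24.1 ± 1.65 to 13.9 ± 0.751 CPM (edgeR adjusted p = 5.14e-16). The cofactors V and VIII thus moved in opposite directions, by log2 fold changes of 1.12 and -0.79. Megakaryocytes and platelets hold factor V and von Willebrand factor too, and their 5 markers summed to 6.05 to 7.20 CPM with vehicle and to 5.23 to 6.40 CPM with TGF-β1. Nearly all of that was *Itga2b*, which fell from 6.43 ± 0.435 to 5.38 ± 0.488 CPM (SD, n = 4 each; edgeR adjusted p = 0.0218), and the part of such cells was not tested.

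*Mcfd2*, a subunit of the cargo receptor that exports factors V and VIII from the endoplasmic reticulum, rose with a log2 fold change of 0.36, as did *P4hb*, a disulfide isomerase, with 0.24 (edgeR adjusted p = 1.56e-12 and 3.75e-12). *Tgm2*, which cross-links matrix proteins, rose by 0.73 (edgeR adjusted p = 3.29e-19), with 18.7% of its 50-base words shared with other genes and 21.8% of its exon bases overlapped on the opposite strand. *Ano6*, the scramblase that exposes procoagulant phosphatidylserine, fell by 0.33 (edgeR adjusted p = 3.40e-16). The fibrinogen chains *Fga*, *Fgb* and *Fgg*, and *F7*, *F9* and *F10*, were under the filter.

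A list of 21 genes for anticoagulants and related proteins holds *Thbd*, *Tfpi* and *Tfpi2*, and also genes such as *Gas6*, *Nt5e* and *Ptgis*. Of these 21, 16 were tested, and 6 were higher and 7 lower. The called share was 81.3%, beside 41.3% of all genes, with a median log2 fold change of -0.20. Beside *Thbd*, the larger falls were those of 2 serpins. *Serpina10*, the protein Z-dependent inhibitor of factor Xa, went from 2.61 ± 0.547 to 0.748 ± 0.0693 CPM, and *Serpind1*, heparin cofactor II, from 7.86 ± 0.286 to 3.88 ± 0.621 CPM (SD, n = 4 each; log2 fold changes -1.80 and -1.02, edgeR adjusted p = 2.20e-11 and 7.25e-12). *Gas6*, a ligand of TAM receptors related to protein S, fell by 0.36 and *Ptgis*, prostacyclin synthase, by 0.30 on the log2 scale (edgeR adjusted p = 1.37e-14 and 1.11e-11).

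The partner of thrombomodulin went the other way. *Procr*, the endothelial protein C receptor, which presents protein C to the thrombin-thrombomodulin complex, rose from 10.5 ± 0.720 to 15.9 ± 0.886 CPM (SD, n = 4 each; log2 fold change 0.60, standard error 0.06, edgeR adjusted p = 9.75e-11). For *Nt5e*, which makes adenosine from AMP, and *Hs3st1*, which makes the antithrombin-binding form of heparan sulfate, the log2 fold changes were 1.06 and 0.67 (edgeR adjusted p = 4.51e-14 and 2.67e-11). *Anxa5*, which binds phosphatidylserine, rose by 0.16 (edgeR adjusted p = 5.35e-07).

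Thrombin signals to cells through protease-activated receptors, a family of 4 genes of which *F2rl1* answers mainly to trypsin-like proteases. *F2r* (PAR1), the main one here, rose from 110 ± 5.38 to 153 ± 3.60 CPM (SD, n = 4 each; log2 fold change 0.47, standard error 0.03, edgeR adjusted p = 8.75e-18). *F2rl2* (PAR3) fell from 2.79 ± 0.276 to 1.32 ± 0.173 CPM (log2 fold change -1.08, standard error 0.15, edgeR adjusted p = 8.43e-08). *F2rl1* (PAR2) and *F2rl3* (PAR4) were under 1 CPM and not called, with log2 fold changes of -0.05 and 0.19 and standard errors of 0.39 and 0.35.

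Of 6 genes for PEDF and proteins named as its receptors or partners, 3 were higher, 2 were lower and 1 was not called (83.3% called, beside 41.3% of all genes), with a median log2 fold change of 0.14. *Serpinf1* itself is 1 of the 3 higher genes, and without *Plxdc1*, whose call is the least stable, 2 remain. *Plxdc2* fell by 0.36 on the log2 scale (edgeR adjusted p = 1.22e-14), whereas *Rpsa*, which encodes a laminin-binding ribosomal protein, rose by 0.25 (edgeR adjusted p = 1.73e-12), with 28.8% of its 50-base words shared with other genes. *Pnpla2*, a lipase, was not called (log2 fold change 0.02, standard error 0.04, edgeR adjusted p = 0.657). *Plxdc1*, at 1.13 ± 0.161 CPM with vehicle and 1.61 ± 0.397 CPM with TGF-β1 (SD, n = 4 each), had an edgeR adjusted p of 0.0317. That call was lost in DESeq2 (adjusted p = 0.0720) and without vehicle culture 1 (0.0804) or 4 (0.0863) or TGF-β1 culture 6 (0.0574), 7 (0.111) or 8 (0.125). *Lrp6*, a Wnt co-receptor, had a log2 fold change of -0.07 (edgeR adjusted p = 0.0196), a call lost without vehicle culture 1 (0.202) or TGF-β1 culture 7 (0.0554).

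**Figure D4:**
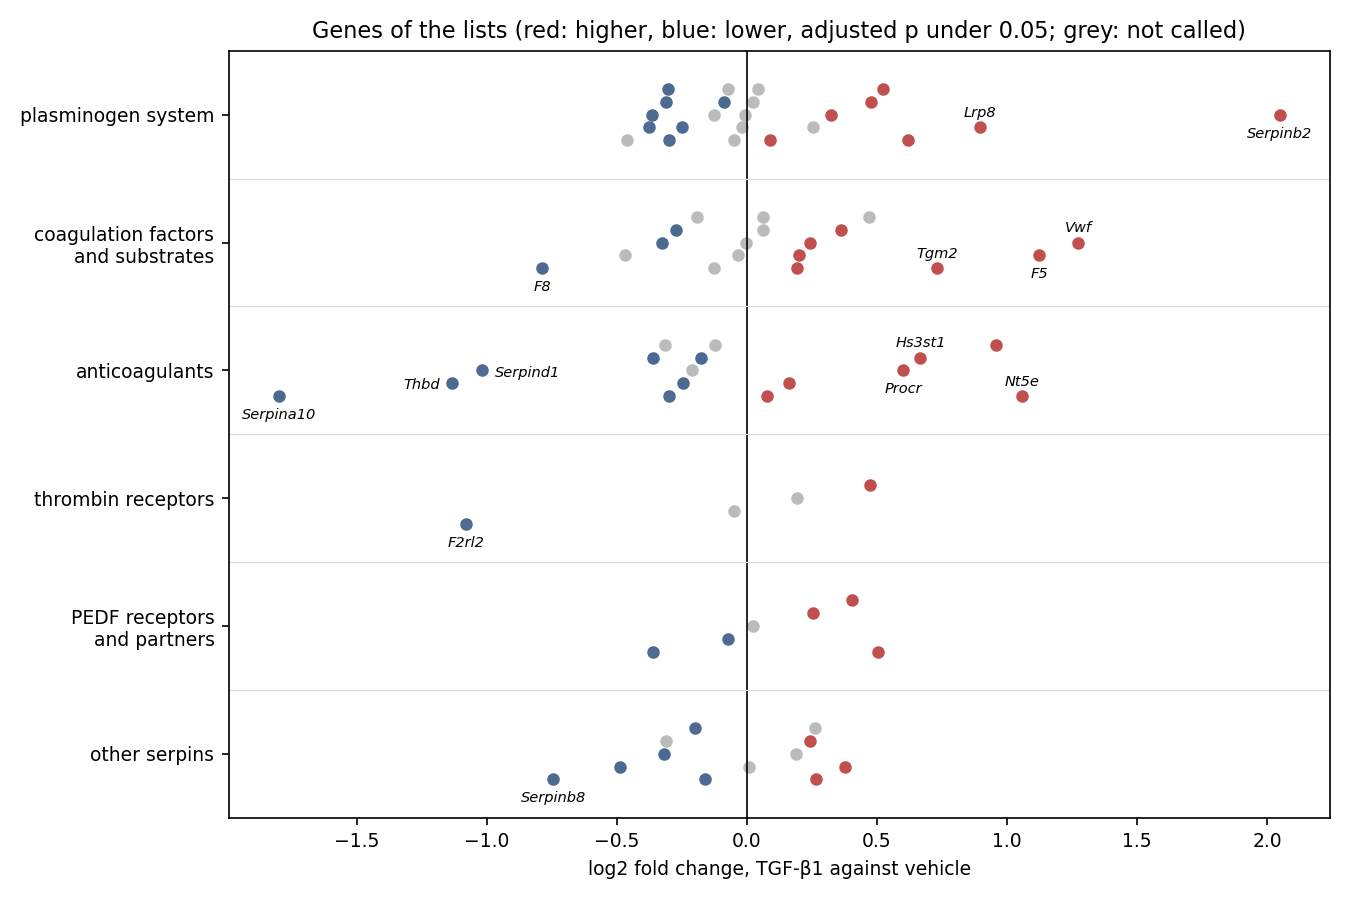
Log2 fold change, TGF-β1 against vehicle, of every tested gene of 6 lists (points), in red where higher and blue where lower with an edgeR adjusted p under 0.05 and in grey otherwise, with names for the genes named in the text that changed by more than 0.55. Each list holds genes on both sides of 0, from *Serpina10* at -1.80 to *Serpinb2* at 2.05.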

How the data were processed

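RNA-seq libraries of 8 pericyte cultures, 4 with TGF-β1 and 4 with vehicle, were used. According to the study's methods and the submitters' processing notes, the authors used STAR 2.7.5c for alignment to mm10, samtools 1.15 to discard PCR duplicates and featureCounts 2.0.3 for counting. The deposited values are raw counts per gene, without normalization. Strandedness, gene annotation and whether mates were counted singly are not given in the sources used here. Of the counts from 1 to 20, 68.5% to 70.2% were even, for a cause that was not tested. The interval of the *Tfpi2* ratio covers counting error only, with each count taken as independent. Those of log2 fold changes also cover the spread between cultures. The authors tested the counts with DESeq2.

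Of the 54532 identifiers, 54409 were paired with a symbol. Positions are from GENCODE M21 (GRCm38, the assembly of mm10), promoter windows from RefSeq (GRCm38.p6). The comparison used edgeR 4.0.16 in R 4.3.3 (filterByExpr, TMM, robust quasi-likelihood test, Benjamini-Hochberg adjustment over 22544 genes, threshold 0.05). A standard error is the log2 fold change divided by the square root of F. Single values were compared by exact permutation over 35 splits. The fits were tested on simulated data.

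Cultures of a group differed by 2.25 to 3.93 per degree of freedom in a chi-square test of their counts. Sampling noise gives 1, but more if both mates of a pair were counted, so this does not settle how far the cultures differ beyond it. Each was counted as 1 sample, as labelled. If same-group cultures share an isolate, p-values measure a partly technical spread. The members and lists were chosen with earlier results of these data known. All members are named, with, from each list, up to 5 called genes per direction with the largest change and a mean of at least 1 CPM, all receptors of thrombin and all receptors and partners of PEDF. Other genes named as not called or under the filter were chosen after their values were seen. No more than 0.303% of the 50-base words of any member occur in other genes, and no exon of a member overlaps another gene. The alternatives were DESeq2 1.42.0, 3 other scalings, 2 other filters, counts divided by 2, and each culture left out.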

Additional observations from a re-analysis of the deposited data

Results flagged for a closer look

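Of 110 groups of 4 values examined (the named genes, the ratios and the library totals), 7 held a culture far from the other three, where chance at 1 in 20 gives 5.5. One was a member: *Tfpi2* was at 0.0631 CPM in vehicle culture 3 and at 0 in the other vehicle cultures. *Serpind1* was at 8.29 CPM in vehicle culture 2 (nearest 7.75), *Lrpap1* at 59.2 CPM in TGF-β1 culture 8 (nearest 64.9), *Ptgis* at 89.6 CPM in TGF-β1 culture 5 (nearest 82.9) and *F2r* at 147 CPM in TGF-β1 culture 5 (nearest 154). *Plxdc2* was at 107 CPM in vehicle culture 1 (nearest 104) and at 84.8 CPM in TGF-β1 culture 6 (nearest 80.5).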

How the results depend on the processing

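No paired analysis was possible because the labels number the vehicle cultures 1 to 4 and the TGF-β1 cultures 5 to 8 and share no number. *Thbd*, *Plat*, *F3*, *Plaur* and *Serpinf1* kept direction and call in all 15 alternatives, among them log2 fold changes with each culture left out of -1.15 to -1.11, -0.32 to -0.29, -0.29 to -0.25, 0.44 to 0.53 and 0.39 to 0.42. *Tfpi* lost its call in DESeq2 (log2 fold change 0.082), with library totals only (0.065) and with at least 1 count in any culture (0.070), and ranged from 0.054 to 0.11 with each culture left out. The log2 fold changes of uncalled *Serpine2* (-0.031 to 0.0088) and *Plau* (-0.0078 to 0.10) changed sign with a culture left out. *F2rl1* ranged from -0.42 to 0.13 and turned positive without vehicle culture 1 (0.07) and TGF-β1 cultures 7 (0.07) and 8 (0.13), and *F2rl3* ranged from -0.045 to 0.37. With a culture left out, the PEDF list held 2 to 3 higher and 1 to 2 lower genes, and 2 higher genes in DESeq2. For 40 named genes that are not members, 582 of 597 fits kept direction and call, 11 lost the call and 4 changed sign. The lost calls were those of *Plxdc1*, *Lrp6* and *Serpinb6b*, and the sign changes those of *F2rl1* and *F2rl3*. *Tfpi2* exceeded vehicle by 0.224 to 0.315 CPM with each culture left out, at 3 counts or fewer per vehicle culture.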

Other observations

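Serpins outside the plasminogen and coagulation lists moved in both directions. Of 15 such genes, 12 were tested, and with an edgeR adjusted p under 0.05 3 were higher and 5 were lower. The called share was 66.7% of those tested, beside 41.3% of all genes, with a median log2 fold change of -0.08. *Serpinb8*, an intracellular inhibitor of furin-like proteases, fell most, from 138 ± 2.45 to 82.4 ± 4.36 CPM (SD, n = 4 each; log2 fold change -0.74, edgeR adjusted p = 3.46e-24). *Serpinb9*, the granzyme B inhibitor, fell by 0.32, *Serpina3n* by 0.49 and *Serpinb9b* by 0.20 on the log2 scale. *Serpinb6b* had a log2 fold change of -0.16 (edgeR adjusted p = 0.0113), a call lost without vehicle culture 3 (0.0532) or 4 (0.0539) or TGF-β1 culture 8 (0.0740). *Serpinh1*, the collagen chaperone HSP47, rose from 630 ± 17.4 to 818 ± 8.19 CPM (SD, n = 4 each; log2 fold change 0.38, edgeR adjusted p = 8.65e-19). *Serpinb6a* and *Serpina3g* had log2 fold changes of 0.27 and 0.24 (edgeR adjusted p = 6.02e-12 and 3.01e-05), with 25.1% and 15.5% of their 50-base words shared with other genes.

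Among the 9 genes of the report, vehicle culture 2 held the lowest value of its group for 6 (*Serpine2*, *Plaur*, *Serpinf1*, *F3*, *Tfpi* and *Thbd*) and the highest for *Plat*. TGF-β1 culture 8 held the lowest value for 4 (*Serpine2*, *Serpinf1*, *F3* and *Thbd*) and the highest for *Plaur* and *Tfpi2*. TGF-β1 culture 5 held the lowest value for 4 (*Plat*, *Plau*, *Plaur* and *Tfpi2*) and the highest for *Serpine2* and *F3*.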
